A study of Arabidopsis thaliana with 6 samples.

Results

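The MIKC-type MADS-box genes of *Arabidopsis* encode transcription factors with a DNA-binding MADS domain followed by the I, K and C regions. The 38 members examined here were taken from a fixed list of AGI codes, out of 27444 protein-coding genes on the 5 nuclear chromosomes, by gene family and not by a threshold on a measured value. They comprised 17 floral organ genes, 9 flowering-time genes, 6 root genes, 4 SOC1-like genes and the pair AGL15 and AGL18. A member was counted as marked when an H3K9Ac peak overlapped its TAIR10 gene body or the 500 bp upstream of its transcription start site (TSS) by at least 1 bp.

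H3K9Ac, the acetylation of lysine 9 of histone H3, was profiled by chromatin immunoprecipitation sequencing (ChIP-seq) in whole etiolated seedlings of the *ein2-5* mutant. Both treatment groups were of this mutant, in which EIN2, the membrane protein that relays ethylene perception to nuclear transcription, is defective. The air group was 3-day-old dark-grown *ein2-5* seedlings kept in hydrocarbon-free air, and the ethylene group was the same line and age given 10 ppm ethylene for 4 h. Each treatment had 2 H3K9Ac libraries and 1 control library, and the deposited data were 1 list of peaks per treatment, called on the pooled libraries. The sample labels name the controls as IgG in one field and as Protein G beads in another. The peak lists carry no measure of the *ein2-5* lesion itself, and wild-type seedlings were not analysed here.

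The air list held 18314 peaks with a median breadth of 578 bp, and the ethylene list held 12864 peaks with a median of 423 bp. Behind the air peaks stood 45582654 H3K9Ac tags and 13726993 control tags, and behind the ethylene peaks 43572576 and 4354374. The peak caller scaled the H3K9Ac data down to the control, so an equally enriched region had a smaller p-value in the air list. Treatment and control depth therefore cannot be told apart in any comparison of the lists. With 1 pooled list per treatment there was no spread between replicates, and no test between the treatments was possible.

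MADS-domain proteins act as dimers and higher complexes that bind DNA motifs called CArG boxes. In flowers, the A, B, C, D and E function genes specify sepals, petals, stamens, carpels and ovules, whereas before flowering FLC, its relatives FLM and MAF2 to MAF5, and SVP hold back the floral transition. SOC1 and AGL24 promote it, and some AGL17 relatives, such as ANR1 and AGL21, act in roots. H3K9Ac is a mark of active promoters, and many MADS-box genes are known to be held silent by Polycomb complexes in tissues where they are not used.

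In air, 14 of the 38 members (36.8%) were marked, against 60.9% of all coding genes. In ethylene 9 members (23.7%) were marked, against 46.0% of all coding genes. Members span 1845 to 6067 bp, and among the coding genes in that length range 74.0% had an air peak and 56.5% an ethylene peak. The shares of marked members lay below these levels in both lists. All 9 members with an ethylene peak also had an air peak, a 9 of 14 overlap beside 75.2% for all air-marked coding genes. With the air list cut to as many peaks of lowest p as the ethylene list holds, 7 members were marked in air and 9 in ethylene, so the order of the lists turned, while 48.3% of all coding genes then had an air peak.

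The groups differed widely in how many members were marked. Among the floral organ genes 1 of 17 carried a peak in either list (5.88%). Seedlings were taken whole, so acetylated chromatin in few cells and weak acetylation in many cells cannot be told apart. Among the flowering-time genes 8 of 9 were marked in air (88.9%) and 6 of 9 in ethylene (66.7%). In the root group 3 of 6 were marked in air (50.0%) and 1 in ethylene (16.7%). One SOC1-like gene of 4 was marked in air only, and AGL18 but not AGL15 was marked in both lists. Outside the floral group, 13 of 21 members were marked in air (61.9%) and 8 in ethylene (38.1%), shares close to those of all coding genes in air and below them in ethylene. Both shares lay below the 74.0% and 56.5% of coding genes in the length range of members. With air and ethylene lists of equal length, flowering-time members were marked in 5 and 6 cases and root members in 1 and 1, so the higher counts in air did not hold for these groups, and no floral member was marked in air.

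**Figure D1:**
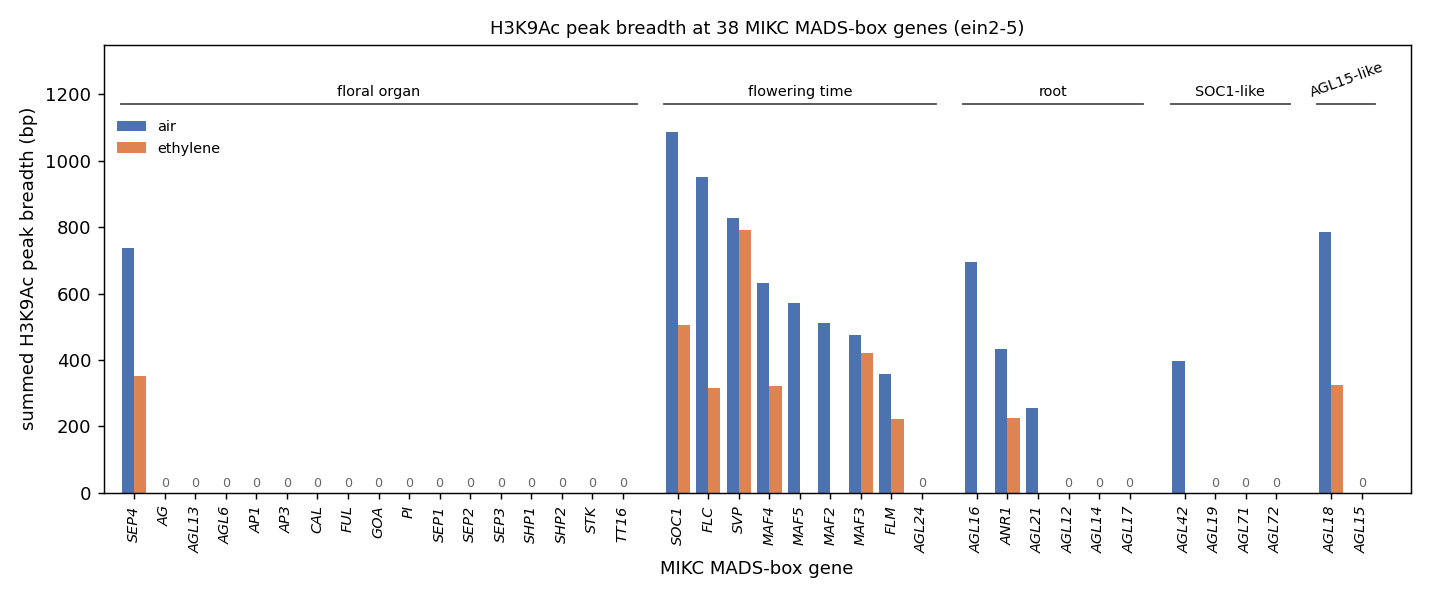
Summed breadth of H3K9Ac peaks (bp) at each of the 38 members, by group, in air and in ethylene; a 0 marks a member without a peak in either list. Breadths ran from 256 bp (AGL21) to 1087 bp (SOC1) in air, and 16 of the 17 floral organ genes had none.

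Where a member was marked, the signal in most cases sat at the beginning of the coding sequence. In most of these genes the first coding exon encodes nearly all of the MADS domain, and it was 182 bases long in 14 members and 185 bases in another 14. At 10 of the 14 air-marked members (71.4%) the summit of the peak with the highest fold enrichment lay inside this exon, beside 49.6% of all air-marked coding genes. In ethylene it did so at 5 of 9 members (55.6%), beside 51.2%. The median summit of the members lay 75.5 bp downstream of the start codon in air, and that of all marked coding genes 111.5 bp downstream. None of the 16 air and 9 ethylene peaks of members reached upstream of the TSS. The bases under 8 of these summits were printed: they are the air summits inside the first coding exon whose windows hold no untranslated bases, and the 5 from the FLC clade allow the relatives to be compared. Each run is 101 bases of TAIR10.1 centred on the air summit, 5′ to 3′ on the strand of the gene, with exon bases in capitals and intron bases in lower case.
FLC (chr5:3179159-3179259, minus strand): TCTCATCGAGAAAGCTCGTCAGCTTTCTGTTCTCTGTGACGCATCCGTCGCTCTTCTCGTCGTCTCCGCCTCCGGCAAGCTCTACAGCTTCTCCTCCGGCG
FLM (chr1:28955792-28955892, plus strand): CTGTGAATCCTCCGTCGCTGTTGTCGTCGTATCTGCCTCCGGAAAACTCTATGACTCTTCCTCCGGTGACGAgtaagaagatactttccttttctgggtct
MAF2 (chr5:25982529-25982629, plus strand): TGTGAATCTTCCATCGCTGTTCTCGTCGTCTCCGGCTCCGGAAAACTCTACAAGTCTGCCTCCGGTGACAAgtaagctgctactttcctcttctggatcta
MAF3 (chr5:25987608-25987708, plus strand): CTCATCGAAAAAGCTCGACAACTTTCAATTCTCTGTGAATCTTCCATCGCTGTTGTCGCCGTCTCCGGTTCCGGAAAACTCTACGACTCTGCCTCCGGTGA
MAF5 (chr5:25997675-25997775, plus strand): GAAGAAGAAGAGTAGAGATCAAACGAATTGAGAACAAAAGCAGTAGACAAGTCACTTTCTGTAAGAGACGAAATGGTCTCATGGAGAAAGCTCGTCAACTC
AGL16 (chr3:21177723-21177823, plus strand): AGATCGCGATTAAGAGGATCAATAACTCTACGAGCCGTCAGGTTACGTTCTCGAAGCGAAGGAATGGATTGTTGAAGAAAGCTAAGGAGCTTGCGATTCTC
AGL21 (chr4:17838473-17838573, minus strand): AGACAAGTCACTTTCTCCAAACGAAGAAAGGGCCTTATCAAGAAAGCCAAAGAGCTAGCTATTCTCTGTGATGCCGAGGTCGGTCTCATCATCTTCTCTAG
AGL18 (chr3:21233936-21234036, plus strand): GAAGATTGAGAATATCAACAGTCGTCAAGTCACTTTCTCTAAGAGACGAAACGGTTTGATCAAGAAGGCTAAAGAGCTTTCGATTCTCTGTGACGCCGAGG

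FLM and MAF2 thus had their air summits close to the end of the first coding exon, 163 and 164 bp past the start codon, and their windows run into intron 1. The windows of FLC and MAF3 lie wholly within that exon, with summits 130 and 131 bp past the start codon. MAF5, AGL16, AGL21 and AGL18 had theirs 75, 63, 98 and 76 bp past it. SVP and AGL42 were closer still, at 21 and 30 bp. Summits of the other marked members lay outside the first coding exon.

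**Figure D2:**
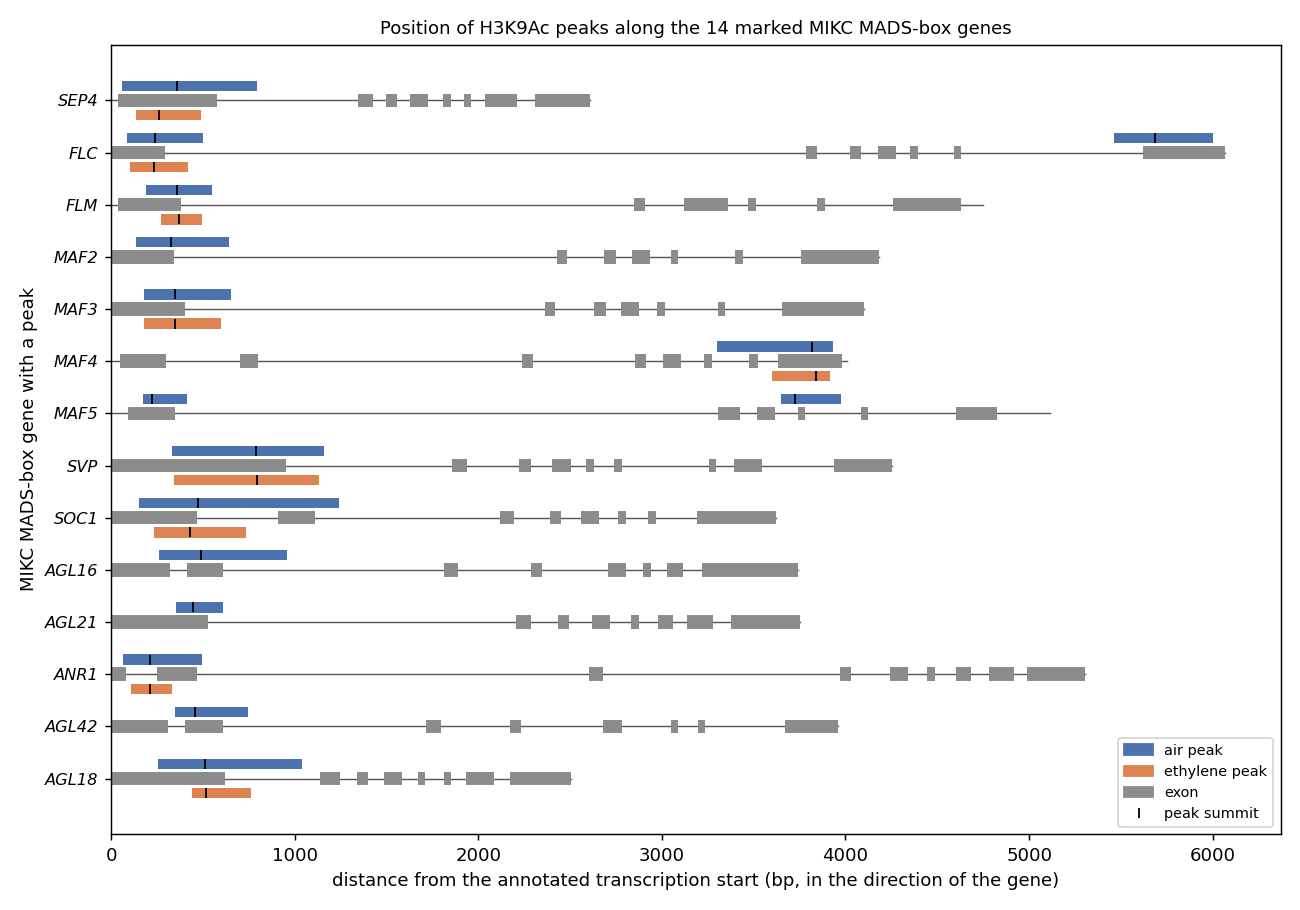
Position of each H3K9Ac peak along the 14 marked members, in bp from the annotated TSS in the direction of the gene, with exons as grey boxes, air peaks above, ethylene peaks below and a tick at each summit. The peaks of MAF4 and a further air peak each of FLC and MAF5 lie at 3301 bp or beyond, and all other peaks begin 58 to 442 bp past the TSS.

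FLC (AT5G10140, chromosome 5, 3173382 to 3179448, minus strand) represses the floral integrators and is silenced by cold. In the Columbia accession it is weakly expressed, since the activator FRI is defective there. At its 5′ end the air peak covered 414 bp, from 86 to 499 bp past the TSS, with 236 tags at the summit and a fold enrichment of 1.90 over the local background. In ethylene the same place held a peak of 315 bp with 263 tags and a fold enrichment of 2.44. Both summits fell in exon 1, 5 bp apart. FLC also had an air peak of 538 bp at its 3′ end, 5464 to 6001 bp past the TSS, with its summit in exon 7, 195 tags and a fold enrichment of 1.87. That peak had no counterpart in ethylene, as was the case for 22.9% of air peaks with a p at least as small. This share, like those given below for other air-only peaks, covers all stronger air peaks too. The share among air peaks of similar p was not computed. The 3′ peak overlaps the antisense long noncoding RNA gene AT5G01675 (chromosome 5, 3173371 to 3179600, plus strand), whose start lies 393 bp from the summit. The 3′ peak of FLC thus also sits at the 5′ end of its antisense transcript. ChIP-seq does not resolve strand, and the assignment to either transcript cannot be told apart.

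FLM (AT1G77080, chromosome 1, 28955483 to 28960234) delays flowering in a temperature-dependent way through its splice forms. Its air peak was narrow, 358 bp, with 287 tags and a fold enrichment of 2.59. The ethylene peak covered 223 bp with 288 tags and a fold enrichment of 1.86. The tags at the summit were thus nearly equal, while the local background was 108.9 tags in air and 150.1 in ethylene. These background values come from control tags scaled up to the H3K9Ac depth. They rest on fewer control tags in ethylene, with 4354374 in all beside 13726993 in air. Their counting error was not computed, so whether the backgrounds differed was not tested.

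MAF2 to MAF5 lie in tandem on chromosome 5 and repress flowering, MAF2 chiefly against premature vernalization responses. The span from 500 bp upstream of MAF2 to the end of MAF5 (25981754 to 26003119) held 5 air peaks covering 10.2% of it, and 2 ethylene peaks covering 3.46%. MAF2 (AT5G65050, 25982254 to 25986435) had the highest fold enrichment of all members in air, 3.20, at percentile 93.1 of the air-marked coding genes. This peak covered 510 bp from 136 to 645 bp past the TSS, with 309 tags at the summit and a −log10 p of 21.6. The ethylene list had no peak there. Of the 1353 air peaks with a p as small as that of MAF2, 27 (2.0%) lacked an overlapping ethylene peak.

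A peak upstream of MAF2 was present in both lists. It lay over the long noncoding RNA gene AT5G09295, ended 1462 bp upstream of the MAF2 TSS in air and 1559 bp in ethylene, and had 275 and 276 tags at its summit. The ethylene list thus held this upstream peak and none over MAF2 itself. In ethylene a summit of 309 tags would have missed the calling threshold at a local background of 195.4 tags or more. Over the ethylene peaks the median background was 120.1 tags, and 2.21% of these peaks had a background above 195.4 tags. Places where the background was too high for a call are not in the list. This share therefore cannot show how common such a background is at places without a peak. The ethylene tags at MAF2 are not part of a peak list and were not analysed here, so the level there is unknown.

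MAF3 (AT5G65060, 25987309 to 25991412), which was 87.9% identical to MAF2 over the 613 bases that aligned without gaps in the first 700 bp, had a peak in both lists. It covered 476 bp with 292 tags in air and 420 bp with 309 tags in ethylene, at fold enrichments of 2.17 and 1.99. Summits were 1 bp apart. Over the 15 pairs of the FLC clade this identity, in which gapped bases are not counted, ran from 70.5% to 87.9%, with FLM and MAF3 at 85.2% and MAF4 and MAF5 at 81.9%. Still, 51-base reads could be placed, since 96.93% to 100% of the 51-base words under each member peak occur once in the genome.

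MAF4 (AT5G65070, 25992193 to 25996202) had no peak at its 5′ end. Its air peak of 632 bp lay from 3301 to 3932 bp past the TSS with the summit in the last exon, exon 8, 191 bp before the gene end. It had 239 tags and a fold enrichment of 1.87 in air, and in ethylene 320 bp, 230 tags and 2.00. The next gene on this strand, MAF5, starts 1302 bp beyond the end of MAF4, and no other gene is annotated in between. MAF5 (AT5G65080, 25997504 to 26002619) had a small air peak of 239 bp in exon 1 with 164 tags and a fold enrichment of 1.94. A further air peak of 331 bp with 150 tags and 1.71 lay over introns 3 and 4. Neither was in the ethylene list, as was the case for 23.4% and 29.0% of air peaks with a p at least as small.

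SVP (AT2G22540, chromosome 2, 9579647 to 9583901) partners FLC in repressing flowering. Of the members marked in both lists it had the smallest difference in breadth, with 829 bp and 296 tags in air and 790 bp and 299 tags in ethylene. Its summits were 4 bp apart. Fold enrichments were 2.15 and 2.57. Its ethylene breadth stood at percentile 83.1 of marked coding genes, the highest of any member there. SOC1 (AT2G45660, chromosome 2, 18807505 to 18811125, minus strand), an integrator that promotes flowering and is repressed by FLC and SVP, had the broadest air peak of all members, 1087 bp from 155 to 1241 bp past the TSS. Its ethylene peak covered 505 bp. The summit held 231 tags in air and 224 in ethylene, and lay 457 and 502 bp before the start codon, in intron 1 and exon 1 of the leader. AGL24 (AT4G24540), which promotes flowering together with SOC1, was the only flowering-time member without a peak. Its nearest air peak was 946 bp outside the window of gene body and 500 bp upstream. Floral repressors and the floral activator SOC1 were thus marked in the same dark-grown seedlings.

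SEP4 (AT2G03710, chromosome 2, 1129229 to 1131838), an E-function gene that acts with the other SEPALLATA genes in all floral whorls, was the only marked floral organ gene. Its air peak covered 737 bp with 172 tags and a fold enrichment of 2.19, and its ethylene peak 353 bp with 198 tags and 2.36. In tags this was a low peak, at percentile 4.67 of air-marked coding genes. The other 16 carried none in either list: the A-function genes AP1, CAL and FUL, the B-function genes AP3 and PI, the C- and D-function genes AG, SHP1, SHP2 and STK, the E-function genes SEP1, SEP2 and SEP3, the relatives AGL6 and AGL13, and TT16 and GOA of the B-sister group, which act in the ovule and seed coat. For AP1 the nearest air peak was 10856 bp outside this window. For CAL and GOA it was 244 and 165 bp outside the window.

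Of the root members, AGL16, AGL21 and ANR1 belong to the AGL17 clade, in which ANR1 mediates the lateral root response to nitrate. ANR1 (AT2G14210, chromosome 2, 6018558 to 6023863) had a peak in both lists, 432 bp with 195 tags in air and 224 bp with 193 tags in ethylene, and both summits lay 211 bp past the TSS. AGL16 (AT3G57230, chromosome 3, 21177282 to 21181026) had an air peak of 696 bp with 247 tags and a fold enrichment of 2.24. Its nearest ethylene peak was 10032 bp outside the window. No ethylene peak overlapped 12.0% of the air peaks with a p as small. AGL21 (AT4G37940, chromosome 4, 17835217 to 17838969, minus strand), a promoter of lateral root growth, had a weak air peak of 256 bp with 143 tags and a fold enrichment of 1.63, at percentile 0.401 of marked coding genes in tags. It was among the 30.7% of air peaks with a p at least as small that had no ethylene peak. AGL17 itself (AT2G22630), the xylem and root meristem gene AGL12 (AT1G71692) and the auxin transport regulator AGL14 (AT4G11880) had no peak in either list.

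Of the SOC1-like genes, AGL42 (AT5G62165, chromosome 5, 24964646 to 24968607) had an air peak of 397 bp with 135 tags. Its fold enrichment was 1.64, and in tags it stood at percentile 0.114. AGL42 had no peak in ethylene, which also held for 31.4% of the 17824 air peaks with a p at least as small. The air list holds 18314 peaks, so this share is over nearly the whole list and not over peaks as weak as this one. AGL19, AGL71 and AGL72, which promote flowering, had no peak in either list. AGL18 (AT3G57390, chromosome 3, 21233472 to 21235978), which with AGL15 represses flowering and promotes embryogenic growth, had a strong air peak of 786 bp with 278 tags and a fold enrichment of 2.81. In ethylene the peak covered 323 bp with 261 tags, and the fold enrichment was 1.59 over a background of 160.1 tags, compared with 96.97 in air. As at FLM, the counting error of these backgrounds was not computed. AGL15 (AT5G13790) was unmarked, although an air peak lay 244 bp outside its window.

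**Figure D3:**
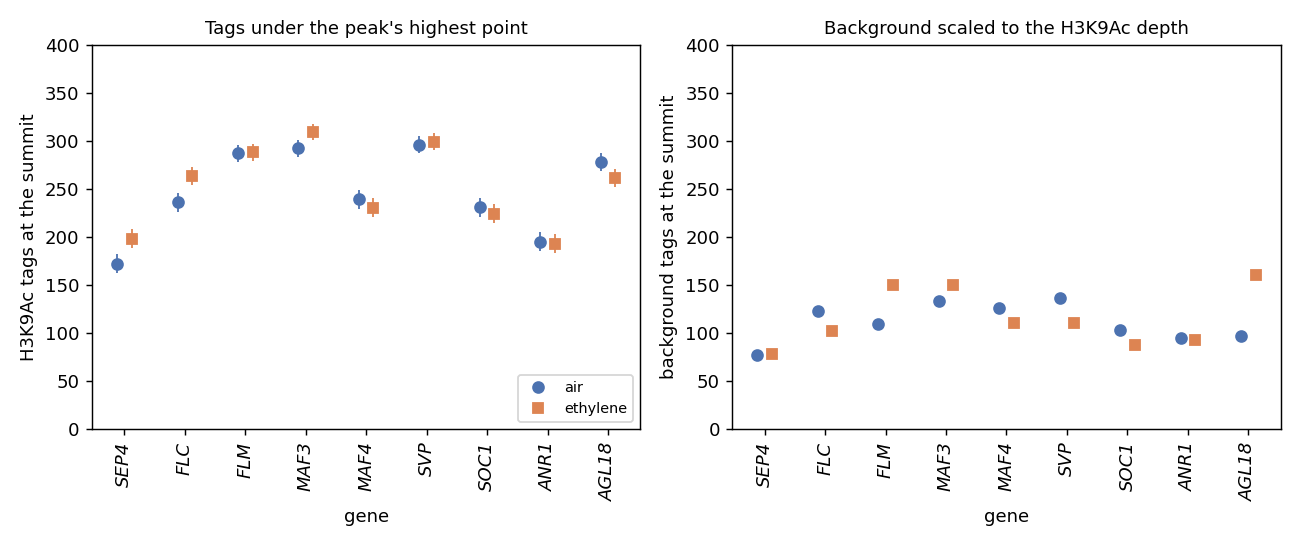
Number of H3K9Ac tags at the summit (left; bars are the binomial counting SD on the 400 tag places at a point) and local background scaled to the same depth (right) for the 9 members marked in both lists. The bars are for each count alone and not for the difference between the lists. Tags were within 27 of each other at every gene. The background stood at 108.9 and 150.1 tags at FLM and at 96.97 and 160.1 at AGL18 in air and ethylene. It rests on control tags, which were fewer in ethylene, and its counting error was not computed.

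At the summits of the 9 members marked in both lists the number of tags differed by 27 or fewer between the treatments. These summits lay 0 to 22 bp apart except at SOC1 (45 bp) and SEP4 (98 bp), where the tags of the lists were read at different positions. The difference, ethylene minus air, was 26 tags at SEP4, 27 at FLC and 17 at MAF3. Each was larger than its counting SD of 14.1, 13.7 and 12.2 tags, which is the SD of the difference and not of a single count. The difference was −17 at AGL18 with a counting SD of 13.2. At FLM, MAF4, SVP, SOC1 and ANR1 the difference was between −9 and 3 tags and below the counting SD. Tag numbers were not adjusted for H3K9Ac depth, which was 45582654 tags in air and 43572576 in ethylene. The sorting against the counting SD therefore holds for unadjusted counts only. With 1 tag kept per position and strand, at most 400 tags can cover a point. Tag numbers can thus understate differences in read density between the treatments, and how far they do was not tested. Across 11700 pairs of peaks that matched one to one in the lists the median difference was −1 tag, with quartiles of −8 and 7. The differences at SEP4, FLC and MAF3 thus lay above the upper quartile and those at AGL18 and MAF4 below the lower one. Counting SDs do not include the spread between seedlings, so whether these differences exceed it was not tested.

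All 9 shared members had narrower peaks in ethylene, but so did 96.7% of the coding genes marked in both lists. The change ran from −39 bp at SVP and −56 bp at MAF3 to −463 bp at AGL18, −582 bp at SOC1 and −637 bp at FLC, where the loss of the 3′ peak is included. Over all matched pairs the median was −206 bp. The median summed breadth of marked members was 601 bp in air and 323 bp in ethylene, beside 678 and 468 bp for all marked coding genes. In air, 11 of the 14 marked members were below the median fold enrichment of marked coding genes, 2.45, and 9 of 14 were below the median of 273 tags. The members with the strongest signal were MAF2, AGL18 and FLM in fold enrichment and MAF2, SVP and MAF3 in tags.

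Genes known to control FLC were compared with the members. All 11 activators on the list were marked in air and 8 in ethylene. The broadest were PIE1, a chromatin remodeller that deposits H2A.Z, with 1368 bp, and VIP3 of the Paf1 complex, with 1139 bp. Of 14 FLC repressors, 13 were marked in air and 9 in ethylene, led by the Polycomb methyltransferase gene CLF with 1074 bp and the autonomous pathway gene LD with 957 bp. VIN3, which is induced by prolonged cold, had no peak. Of 7 genes of the flowering output, 4 were marked in air (57.1%) and 3 in ethylene (42.9%), near the 60.9% and 46.0% of all coding genes. CO, GI and FD had 528, 687 and 744 bp in air and LFY had 246 bp. The florigen gene FT, its relative TSF and the antagonist TFL1 had none.

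**Figure D4:**
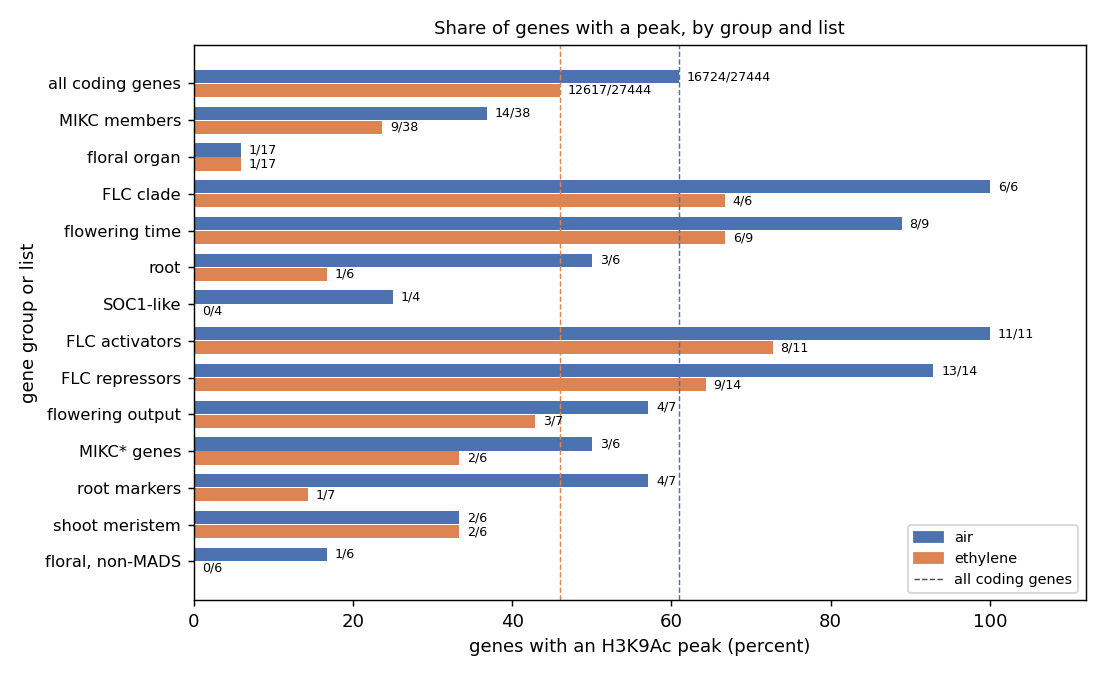
Percentage of genes with an H3K9Ac peak in air and in ethylene in each group of members and in the other gene lists, with counts at the bars and dashed lines at the values of all coding genes (60.9% and 46.0%). Floral organ genes and floral regulators outside the MADS family fall far below the lines, and the FLC clade and the FLC regulators lie above them.

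The MIKC-star genes, MADS-box genes known mainly from pollen, were marked in 3 of 6 cases in air (50.0%), beside 60.9% of all coding genes. In ethylene 2 of the 6 were marked (33.3%), beside 46.0%. AGL65 and AGL30 had broad peaks of 1339 and 1269 bp, and AGL94 had 358 bp. AGL66, AGL67 and AGL104 were unmarked, as was AGL79, a further MIKC gene that stands outside the 38 members. Floral regulators outside the MADS family resembled the floral organ members: LFY was the only 1 of 6 with an air peak, and UFO, SUP, SPL, CRC and INO had none. To check the tissue against its markers, root and shoot meristem genes were examined. Among 7 root markers 4 were marked in air (57.1%): SCR (1425 bp), SHR (1159 bp), WER (785 bp) and GL2 (566 bp). Only SCR had a peak in ethylene (14.3%). PLT1, PLT2 and WOX5, which act in the root stem cell niche, had none. Of 6 shoot meristem genes, CLV1 (1953 bp) and KNAT1 (1059 bp) were marked in both lists (33.3%), whereas STM, CLV3, WUS and CUC2 were not. Neither marker list exceeded the share of all coding genes, 60.9% in air and 46.0% in ethylene, so these shares do not single out either tissue.

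Marked and unmarked members were also compared in features that the choice of members did not use. Marked members had a median length of 4057 bp and a median first intron of 837.5 bp, unmarked members 2936.5 and 527.5 bp, and the ranges overlapped widely. Both sets had a median of 8 exons, and the GC content of the gene bodies was almost the same, with medians of 33.475% and 33.195%. For the unmarked members the nearest air peak lay 165 to 10856 bp outside the window of gene body and 500 bp upstream, with a median of 2271.5 bp.

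Motifs were searched on both strands in the 250 bp before each TSS. The CArG box, a motif that MADS-domain proteins bind, was searched only as CCWWWWWWGG, with W for A or T, and not in variant forms. This sequence was found in none of the 38 member promoters and in 2.52% of 27443 coding gene promoters. It was also absent from the 300-base windows around the 16 air summits of members, beside 1.8% of all 18314 windows. The G-box CACGTG occurred in 1 member promoter, that of FLC, and in 6.49% of all promoters. The telo-box AAACCCTA was found in 4 member promoters, those of the unmarked TT16, GOA, AGL72 and AGL15, and in 4.49% of all. The GA repeat GAGAGAGA was found in 3, those of PI, SEP4 and AGL71, and in 4.91% of all. In the summit windows the telo-box was present at the summits of SVP and AGL42 and in 12.0% of all summit windows, and the GA repeat at those of SVP, ANR1 and AGL42 and in 12.5% of all. These matches describe letters only and were not compared with binding data.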

How the data were processed

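Reads were mapped by the authors to TAIR10 (Bowtie 1.1.2 and SAMtools in the submitters' processing notes). Libraries of a treatment were pooled and peaks called with MACS2 2.1.0.20150603 at a p-value limit of 0.01, with no fragment model, tags extended to 200 bp and 1 tag kept per position and strand. The deposited lists give breadth, the pileup signal at the summit, the fold enrichment (a ratio over local background) and −log10 p, all from the authors' peak caller. A deposited column of −log10 q, which the file header says is not reported, was read as a score and used only for a stricter limit. Whole tag numbers at summits were computed as pileup over scaling factor, and background tags likewise after removing the fold enrichment. At most 400 tags can cover a point.

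Gene models came from RefSeq TAIR10.1, whose nuclear chromosomes are those of TAIR10: 63.9% of air peaks overlapped the first 200 bp of a coding gene, and 42.9% and 41.8% did after shifts of −250 and 250 bp. Every peak overlapping a gene body or 500 bp upstream was assigned to that gene, and the breadths were summed. The analysis used Python 3.11.15 with numpy 2.4.6, pandas 2.3.3 and Biopython 1.88, and the steps were tested on simulated data. Percentiles are over coding genes with a peak, using the strongest peak of each gene. First coding exons are those of the transcript with the longest coding sequence.

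All members were accounted for, and of the 8 other gene lists (58 entries) the marked counts, the broadest in air and those without an air peak were named. LFY stands in both the floral and the output list. Members, lists and comparisons were chosen with earlier results of these data known. The position of summits against the start codon, and the peak upstream of MAF2, were examined after peak positions had been seen. The alternatives tried were 9 other rules for assigning or filtering peaks. Intervals were not computed, since the counts are of genes and not of samples; precision is limited by the pooled lists.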

Additional observations from a re-analysis of the deposited data

How the results depend on the processing

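No paired analysis was possible because the libraries of a treatment were pooled before peaks were called, which also prevented leaving out a library. With the air list cut to the length of the ethylene list, marked members in air were 7 in place of 14 (floral 0, flowering-time 5, root 1), and all 5 members then marked in both lists were narrower in ethylene, in place of 9 of 9. At a fold enrichment of at least 2, 9 members were marked in air and 4 in ethylene (flowering-time 5 and 3, root 0 in ethylene), with 3 of 3 narrower. Of all coding genes, 49.8% then had an air peak and 33.9% an ethylene peak. At a −log10 q of at least 2, 13 members were marked in air and 5 in ethylene. None of these 5 was a root gene (0), and 5 of 5 were narrower. Of all coding genes, 59.9% had an air peak and 31.6% an ethylene peak at this limit. Under all 3 of these limits AGL42 had no air peak, leaving 0 SOC1-like genes. Under the last 2, FLM, MAF4, ANR1 and AGL18 had no ethylene peak. The cause was not tested beyond the smaller number of peaks that these limits leave. The other counts of all, floral, flowering-time and root members and both median breadths stayed within 1.5 times under the 9 alternatives. Assigning each peak to the nearest gene within 5 kb gave MAF2 an ethylene breadth of 432 bp, from the peak over its upstream noncoding neighbour, and 10 marked members. Within 500 bp of the TSS, MAF4 had no peak in either list. Weak peaks, such as the air peaks of AGL42 and AGL21, lie close to the calling limit, with a −log10 p of 2.88 and 3.10. So do the ethylene peaks of AGL18, ANR1, MAF4 and FLM, at 2.13, 2.87, 2.98 and 3.07.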
